A study of Mus musculus with 6 samples.

Results

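*Gria1*, *Gria2*, *Gria3* and *Gria4* encode GluA1 to GluA4, the pore-forming subunits of the AMPA-type glutamate receptor. They are described here in the visual cortex of mice that lack *Chrdl1* (KO) and of wild type mice (WT). Members were the rows of the deposited table with one of these symbols, and all 4 were found among 24453 gene rows. The KO group was labelled *Chrdl1* KO and the WT group WT. All mice were males of the C57BL/6J strain at postnatal day 14, and each group had 3 libraries. Fixation was by perfusion with paraformaldehyde ahead of dissection in all of them, and libraries came from a stranded mRNA kit. The labels say neither how the knockout was made nor whether each library is 1 animal, so the p-values cover library-to-library spread, which may be technical. Each title holds a middle number, used here as the replicate number, and each number goes with the same title code in both groups.

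AMPA receptors are tetramers that carry most fast excitatory transmission in the cortex. The subunit mixture sets how the channel conducts: most GluA2 is altered by RNA editing at the Q/R site of the pore loop, where a glutamine codon is read as arginine, and receptors that hold edited GluA2 pass little calcium. The cytoplasmic tails differ too, and their last residues bind PDZ-domain proteins such as GRIP and PICK1 (GluA2 and GluA3) or SAP97 (GluA1). Chordin-like 1, the product of *Chrdl1*, is a secreted BMP antagonist made by astrocytes and has been tied to the synaptic recruitment of GluA2.

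The pore-loop sequences are shown because the Q/R site is what sets GluA2 apart from its relatives. The lines give 60 bases of the coding strand, 5′ to 3′, from the GENCODE M21 transcript that carries the RefSeq accession of each deposited row, on GRCm38 (mm10). Capitals mark the Q/R codon, and each stretch lies in a single coding exon.
Gria1: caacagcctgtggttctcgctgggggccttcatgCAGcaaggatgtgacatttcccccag
Gria2: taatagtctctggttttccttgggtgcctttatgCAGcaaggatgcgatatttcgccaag
Gria3: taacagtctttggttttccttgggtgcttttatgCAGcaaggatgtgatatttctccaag
Gria4: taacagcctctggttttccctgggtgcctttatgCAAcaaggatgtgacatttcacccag
The *Gria1* stretch is chr11:57243060-57243119 on the plus strand (exon 11 of 16) and that of *Gria2* is chr3:80706888-80706947 on the minus strand (exon 11 of 16). The *Gria3* stretch is chrX:41610231-41610290 on the plus strand (exon 11 of 16) and that of *Gria4* is chr9:4464114-4464173 on the minus strand (exon 12 of 17). The reference genome holds a glutamine codon in all 4 genes, CAG in *Gria1*, *Gria2* and *Gria3* and CAA in *Gria4*. In *Gria2* it is codon 607. Of the 60 bases, *Gria2* shared 55 with *Gria3*, 52 with *Gria4* and 47 with *Gria1*. The deposited table has 1 value per gene, so edited and unedited transcripts are summed in it, as are splice forms.

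The ends of the coding sequences are shown because the tails separate the family into PDZ-binding classes. The lines give the last 42 coding bases before the stop codon of the same transcripts, with the last 4 codons in capitals.
Gria1: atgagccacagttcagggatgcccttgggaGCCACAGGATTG
Gria2: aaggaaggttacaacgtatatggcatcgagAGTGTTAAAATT
Gria3: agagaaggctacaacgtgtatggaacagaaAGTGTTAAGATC
Gria4: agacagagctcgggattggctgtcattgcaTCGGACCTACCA
These are chr11:57327602-57327643 (plus strand), chr3:80689109-80689150 (minus strand), chrX:41672420-41672461 (plus strand) and chr9:4420155-4420196 (minus strand). The last 4 codons of *Gria2* and *Gria3* encode the same residues, and the other ends each differ from these and from one another. *Gria2* shared 32 of the 42 bases with *Gria3*, 13 with *Gria4* and 8 with *Gria1*.

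Levels are in FPKM (fragments per unit of exon length and of mapped reads, as deposited), a scale that corrects for length and so lets genes be compared with each other. *Gria2* (NM_013540, 6823 bp of exon in the authors' model) stood at 78.7, 87.5 and 67.8 FPKM in KO replicates 1, 2 and 3, and at 81.1, 90.9 and 70.99 FPKM in WT replicates 1, 2 and 3. In both genotypes replicate 2 was highest and replicate 3 lowest, and the groups overlapped. *Gria1* (NM_001252403, 5347 bp) stood at 73.6, 71.7 and 81.3 FPKM in KO replicates 1, 2 and 3, and at 76.8, 75.7 and 65.6 FPKM in WT. Here the highest and the lowest library were both numbered 3, the KO one highest and the WT one lowest, and the groups overlapped.

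*Gria3* (NM_016886, 5177 bp) stood at 46.7, 47.4 and 51.9 FPKM in KO replicates 1, 2 and 3, and at 43.9, 50.4 and 51.0 FPKM in WT. Replicate 1 was lowest and replicate 3 highest in both genotypes, the reverse of *Gria2* at replicate 3. *Gria4* (NM_019691, 5428 bp), the subunit gene linked in cortex to fast-spiking interneurons, stood at 18.4, 19.7 and 17.2 FPKM in KO replicates 1, 2 and 3, and at 18.9, 19.8 and 17.2 FPKM in WT. It followed the order of *Gria2*, with replicate 2 highest and replicate 3 lowest in both genotypes. For *Gria3* and *Gria4* the groups overlapped too, so 0 of 4 subunits separated the genotypes, against 2.95% of all tested genes.

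**Figure D1:**
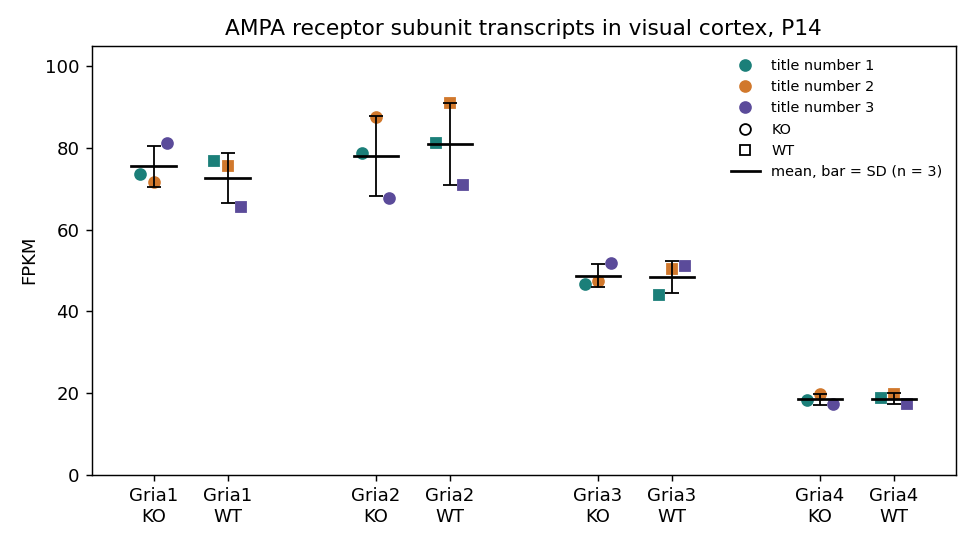
FPKM of each AMPA receptor subunit gene in each library, KO (circles) left of WT (squares), with colours for the title number, the group mean as a line and the SD as a bar (n = 3). *Gria2* and *Gria1* lie between 65.6 and 90.9 FPKM, *Gria3* between 43.9 and 51.9 and *Gria4* between 17.2 and 19.8, and the genotypes overlap for each gene.

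The order of the levels was *Gria2*, *Gria1*, *Gria3*, *Gria4* in 5 of 6 libraries, and in KO replicate 3 *Gria1* was above *Gria2*. *Gria1* and *Gria2* overlapped across libraries, and whether they differed within libraries was not tested. *Gria3* was below both in every library and *Gria4* below *Gria3* in every library, with no overlap. The mean of *Gria2* over the 6 libraries, 79.5 FPKM, was above that of 94.6% of the 12863 tested genes, and the mean of *Gria4*, 18.5 FPKM, above that of 69.9%. Read counts behind these values, recovered from the FPKM, were 13530 to 21141 for *Gria2*, 8683 to 15688 for *Gria1*, 5556 to 8981 for *Gria3* and 2428 to 3911 for *Gria4*. Counting error alone was at most 0.86% of the value for *Gria2* and at most 2.03% for *Gria4*. The SD between libraries was larger, at 12.7% of the mean in KO and 12.3% in WT for *Gria2* and 6.92% in KO and 7.05% in WT for *Gria4*. Levels between genes also rest on the exon model, 1 per gene, that the authors used.

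None of the subunit genes passed the test of KO against WT. The test was limma on log2(FPKM + 1) over the 12863 genes that averaged at least 1 FPKM, called at an adjusted p under 0.05. It called 0 of 4 subunits, against 0.00777% of all tested genes, a background of 1 gene, *Chrdl1* itself. At an unadjusted p under 0.05 there were also 0 of 4, against 0.63% of all tested genes, and limma-voom on recovered reads called 0 of 4. *Chrdl1* stood at 0.172, 0.190 and 0.120 FPKM in KO replicates 1, 2 and 3, against 3.65, 3.57 and 3.09 FPKM in WT, so each library went with its label.

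*Gria2* averaged 78.0 ± 9.88 FPKM in KO and 81.0 ± 9.97 FPKM in WT (SD, n = 3 each), a log2 fold change of -0.05 (SE 0.12, limma adjusted p = 0.9999). Its 95% interval ran in fold from 0.792 to 1.17, which bounds what this comparison could have missed. For *Gria1* the interval ran from 0.9003 to 1.20, for *Gria3* from 0.878 to 1.15 and for *Gria4* from 0.866 to 1.13, on the log2(FPKM + 1) scale turned back to fold. The KO mean stood at 104% of WT for *Gria1*, 96.3% for *Gria2*, 100.5% for *Gria3* and 99.0% for *Gria4*. In bulk RNA, fewer cells of a type and less RNA per cell cannot be told apart.

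Same-numbered KO and WT libraries were also compared with each other. *Gria2* was lower in KO by nearly the same step in each, with differences on log2(FPKM + 1) of -0.04, -0.05 and -0.06 for numbers 1, 2 and 3. *Gria4* had differences of -0.03, -0.005 and -0.002. Both were thus lower in KO in 3 of 3 pairs, a pattern that 9.59% of tested genes shared. *Gria1* was lower in KO for numbers 1 and 2, by -0.06 and -0.08, and higher for number 3, by 0.30. *Gria3* had differences of 0.09, -0.09 and 0.03. With the number as a replicate block the limma interval of *Gria2* narrowed to -0.14 to 0.03 on the log2 scale and its adjusted p was 0.9989.

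**Figure D2:**
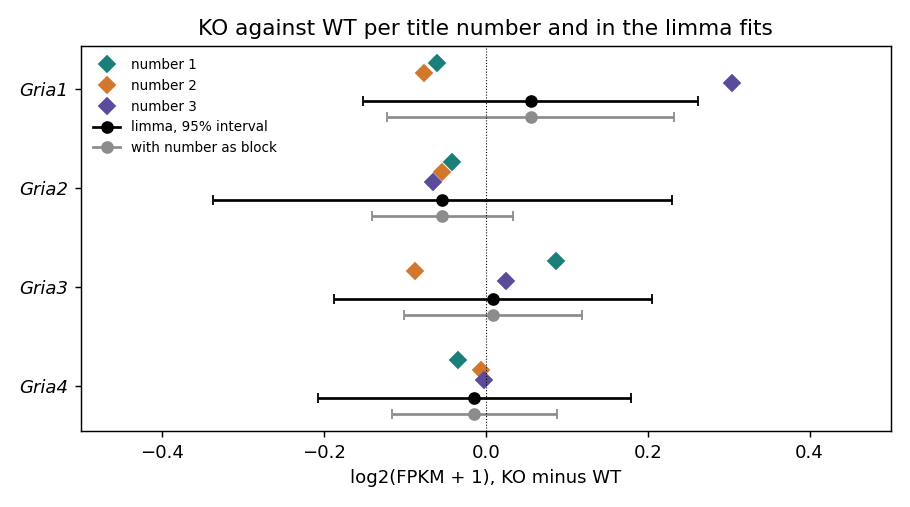
KO minus WT on log2(FPKM + 1) for each subunit gene: diamonds are single title numbers, black and grey points are the limma fold change with its 95% interval, without and with the number as a block. All intervals span 0, and *Gria1* has the widest scatter of pairs, from -0.08 to 0.30.

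The subunits differed in how closely same-numbered libraries followed each other. The F test of the title number, in the limma fit with genotype, called *Gria2* (adjusted p = 0.00616) but not *Gria4* (0.0668), *Gria3* (0.0988) or *Gria1* (0.919). That is 1 of 4 subunits, against 30.6% of all tested genes, and 3 of 4 had an unadjusted p under 0.05, against 46.3% of all tested genes. The mean of *Gria2* over both libraries of a number was 79.9, 89.2 and 69.4 FPKM for numbers 1, 2 and 3, against 75.2, 73.7 and 73.4 FPKM for *Gria1*. Once genotype and number were taken out, the residual SD on the log2 scale was 0.008 for *Gria2*, lower than in all but 2.69% of the 819 genes within 1.5-fold of its level. It was 0.012 for *Gria4*, where 3.59% of genes at its level had a lower one. For *Gria1* it was 0.15, and 97.9% of the 867 genes at its level had a lower one. The residual SDs of *Gria2* and *Gria4* lay below counting error, which reached 0.86% and 2.03% of the value. Closeness below that level, over 3 pairs, cannot be read as a trait of these genes. What a title number stands for is not in the labels. The call of *Gria2* was lost when low genes were not filtered out (F test adjusted p = 0.114). That loss was not particular to *Gria2*, since 0 of 24453 genes were called in that setting.

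The share of each subunit in the summed FPKM of the family describes the mixture of subunit transcripts in the bulk RNA, over all cell types together. It gives neither protein nor the mixture within a cell. The sum was 217.4, 226.4 and 218.2 FPKM in KO replicates 1, 2 and 3, and 220.7, 236.9 and 204.8 FPKM in WT. The sum averaged 220.7 ± 4.95 FPKM in KO and 220.8 ± 16.02 FPKM in WT (SD, n = 3 each), and the groups overlapped. The mean of the log2 sums differed by 0.0015 (exact 2-sided permutation test, p = 1). *Gria2* took 36.2%, 38.7% and 31.1% of the sum in KO replicates 1, 2 and 3, and 36.8%, 38.4% and 34.7% in WT. The lowest share in each genotype was in replicate 3, and the groups overlapped. *Gria1* took 33.8%, 31.7% and 37.2% in KO and 34.8%, 32.0% and 32.0% in WT. KO replicate 3 was thus the library with the lowest share of *Gria2* and the highest share of *Gria1*.

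Mean shares were close between genotypes. The mean *Gria2* share was 35.3 ± 3.87% in KO and 36.6 ± 1.87% in WT, a difference of -1.28 percentage points (exact permutation p = 0.7). The 9 differences between a KO and a WT library ran from -7.31 to 4.01 percentage points. The mean *Gria1* share was 34.3 ± 2.81% in KO and 32.9 ± 1.62% in WT, a difference of 1.32 points (exact permutation p = 0.7). *Gria3* averaged 22.1 ± 1.51% in KO and 22.0 ± 2.58% in WT, and *Gria4* 8.36 ± 0.431% in KO and 8.44 ± 0.0918% in WT. Their exact permutation p were 1 and 0.9, and all shares and ratios had an adjusted p of 1 over the 10 comparisons. With 3 against 3 libraries no exact test could go below p = 0.1.

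Within title numbers the *Gria2* share differed by -0.54, 0.28 and -3.57 percentage points between KO and WT for numbers 1, 2 and 3, and the *Gria1* share by -0.96, -0.28 and 5.21 points. The size of both mean differences thus came from number 3. Without KO replicate 3 the *Gria2* share was 0.84 points higher in KO and the *Gria1* share 0.17 points lower, so both directions turned round. An exact sign-flip test over the 3 pairs, which cannot go below p = 0.25, gave 0.5 for *Gria2* and 1 for *Gria1*.

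**Figure D3:**
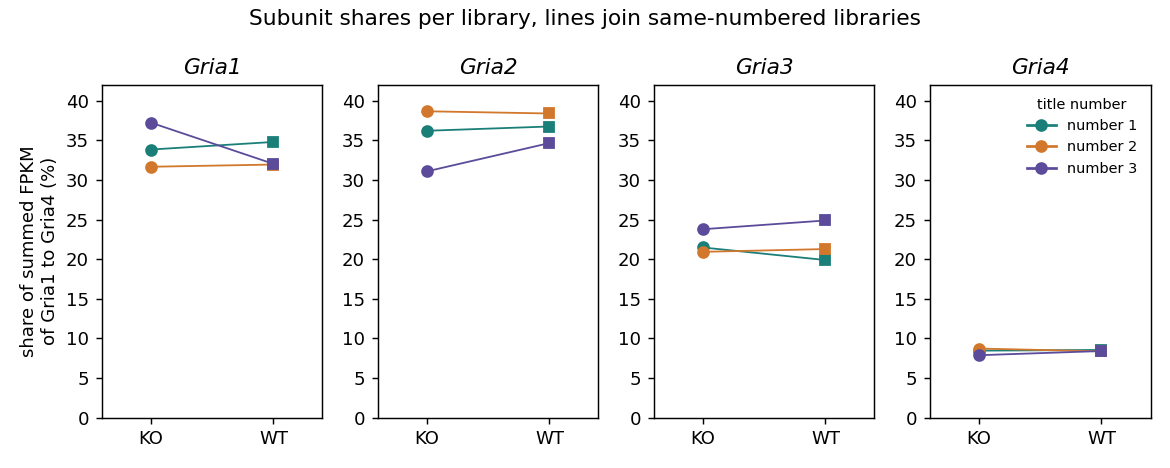
Share of each subunit gene in the summed FPKM of *Gria1* to *Gria4* (%), KO (circles) left of WT (squares), with lines between libraries of the same title number. *Gria2* spans 31.1% to 38.7% and *Gria1* 31.7% to 37.2%, and the number 3 lines slope most for both.

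The ratio of *Gria2* to *Gria1* sets the edited-type subunit against the subunit best known from activity-dependent insertion at synapses. It was 1.07, 1.22 and 0.835 in KO replicates 1, 2 and 3, and 1.06, 1.20 and 1.08 in WT. The KO minus WT difference of the log2 ratio was 0.02 in each of the pairs numbered 1 and 2 and -0.37 in the pair numbered 3. The log2 ratio averaged 0.04 ± 0.28 in KO and 0.15 ± 0.10 in WT (SD, n = 3 each, exact permutation p = 0.8). The *Gria4* to *Gria2* ratio was higher in KO in 3 of 3 pairs, by 0.01, 0.05 and 0.06 on the log2 scale, and its sign-flip p of 0.25 is the lowest that 3 pairs allow. Its groups overlapped (exact permutation p = 0.6). The other 4 ratios had exact permutation p between 0.7 and 0.8.

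Marker genes of other tissues and cell types also varied between these libraries. The 9 markers of meningeal fibroblasts summed to 114.03, 92.8 and 115.5 FPKM in KO replicates 1, 2 and 3, against 83.5, 89.99 and 91.6 FPKM in WT, with no overlap. Of these 9, 8 had higher means in KO (median log2 fold change 0.25), 2 had an unadjusted p under 0.05 and 0 passed. Among all 12863 tested genes, 6921 had a log2 fold change above 0, 5942 one below 0, and 0.63% an unadjusted p under 0.05. The 8 hippocampal markers, a list in which 3 genes were under 1 FPKM and none at 0 in every library, summed to 60.01, 57.9 and 71.8 FPKM in KO replicates 1, 2 and 3, and to 56.4, 52.4 and 66.3 FPKM in WT. They were thus highest in both libraries numbered 3. The median KO minus WT on log2(FPKM + 1) of the 5 tested ones was -0.17, 0.17 and 0.57 for numbers 1, 2 and 3. All 5 had higher means in KO (median log2 fold change 0.26), and 0 had an unadjusted p under 0.05. All 11 striatal markers found in the table had lower means in KO (median log2 fold change -0.62). With all libraries 0 of them passed and 4 had an unadjusted p under 0.05, against 0.63% of all tested genes. Without KO replicate 2 *Scn4b* (log2 fold change -1.89, limma adjusted p = 0.0227), *Ppp1r1b* and *Penk* passed. In that fit 4 of all 12863 tested genes passed, and 207 had an unadjusted p under 0.05. The 11 striatal markers summed to 136.7, 316.3 and 138.1 FPKM in KO replicates 1, 2 and 3, against 322.1, 299.3 and 270.1 FPKM in WT. KO replicates 1 and 3 were thus low. KO replicate 2, the library left out in that fit, was the only KO one within the range of the WT sums. Markers of mature oligodendrocytes, all 10 with lower means in KO, summed to 1419 to 2735 FPKM in KO and 1796 to 2982 FPKM in WT. Those of excitatory neurons summed to 1152 to 1342 FPKM in KO and 1118 to 1295 FPKM in WT, and those of interneurons to 684 to 775 FPKM in KO and 695 to 847 FPKM in WT, with all 10 of each list tested. The sums of astrocyte, oligodendrocyte precursor, microglial and endothelial markers overlapped between genotypes too. All 8 endothelial markers had higher means in KO (median log2 fold change 0.05), and 0 had an unadjusted p under 0.05. The part of these markers in the subunit values was not tested.

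Auxiliary subunits, the membrane proteins that ride with the AMPA receptor and tune its gating and delivery, did not pass either. Of 16 genes, 14 reached a mean of 1 FPKM, and *Cacng1* and *Cacng6* did not. Limma called 0 of the 14, against 0.00777% of all tested genes. At an unadjusted p under 0.05 there were also 0 of 14, against 0.63% of all tested genes, and limma-voom called 0 of the 14. Their median log2 fold change was -0.01, against 0.01 over all tested genes, with 6 above 0 and 8 below. *Cnih2*, a cornichon that helps AMPA receptors leave the endoplasmic reticulum, was the most abundant, at 169.7 ± 16.5 FPKM in KO and 173.2 ± 22.5 FPKM in WT. The TARP gene *Cacng3* averaged 100.05 ± 5.80 FPKM in KO and 101.6 ± 11.2 FPKM in WT, and *Prrt2* 95.5 ± 2.70 FPKM in KO and 95.4 ± 1.16 FPKM in WT. Those with the smallest unadjusted p were *Prrt1* (log2 fold change 0.15), *Shisa6* (0.12), *Cacng8* (0.07) and *Cacng4* (-0.15). The title number was called for 5 of the 14, among them *Cnih2* and *Cacng4*, against the 30.6% of all tested genes given above.

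Of 26 genes for assembly, trafficking and anchoring, all were tested and limma called 0, against 0.00777% of all tested genes. At an unadjusted p under 0.05 there were also 0 of 26, against 0.63% of all tested genes, and limma-voom called 0 of the 26. Their median log2 fold change was -0.01, with 12 above 0 and 14 below. *Dlg4*, which encodes the scaffold PSD-95, averaged 301.5 ± 4.08 FPKM in KO and 303.7 ± 8.43 FPKM in WT. *Nsf*, whose ATPase binds the GluA2 tail, averaged 253.6 ± 14.3 FPKM in KO and 247.0 ± 6.34 FPKM in WT. *Olfm1*, a secreted protein found with AMPA receptors, averaged 387.6 ± 60.8 FPKM in KO and 398.9 ± 78.6 FPKM in WT. The smallest unadjusted p belonged to *Olfm3* (-0.12), the adhesion protein gene *Lrrtm1* (0.09), the pentraxin gene *Nptx2* (-0.13) and *Syndig1* (-0.09). The title number was called for 13 of the 26, against 30.6% of all tested genes.

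The RNA editing enzymes are of interest because ADAR2, from *Adarb1*, edits the Q/R codon of *Gria2*. *Adarb1* stood at 23.3, 25.9 and 22.9 FPKM in KO replicates 1, 2 and 3, and at 22.0, 25.4 and 22.2 FPKM in WT. Replicate 2 was highest in both genotypes, as for *Gria2*. In WT replicate 1 was lowest, whereas *Gria2* was lowest in replicate 3 in both genotypes. The *Adarb1* groups overlapped. *Adar* averaged 29.2 ± 1.28 FPKM in KO and 28.5 ± 1.77 FPKM in WT, and *Adarb2*, whose product has no known editing activity, 2.63 ± 0.173 FPKM in KO and 2.79 ± 0.426 FPKM in WT. Limma called 0 of these 3, against 0.00777% of all tested genes, and limma-voom called 0 of 3. At an unadjusted p under 0.05 there were 0 of 3, against 0.63% of all tested genes. The title number was called for 0 of 3, against 30.6% of all tested genes.

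The other ionotropic glutamate receptor genes give the subunits a frame. All 14 NMDA, kainate and delta subunit genes were tested, and limma called 0, against 0.00777% of all tested genes. At an unadjusted p under 0.05 there were also 0 of 14, against 0.63% of all tested genes, and limma-voom called 0 of the 14. Their median log2 fold change was 0.03, with 10 above 0 and 4 below. *Gria1* to *Gria4* made up 41.9%, 44.4% and 42.5% of the summed FPKM of all 18 ionotropic subunit genes in KO replicates 1, 2 and 3, and 44.4%, 44.0% and 42.3% in WT. The obligatory NMDA subunit gene *Grin1* averaged 137.0 ± 11.6 FPKM in KO and 133.2 ± 4.86 FPKM in WT, above any AMPA subunit gene. In contrast, *Grin2a* and *Grin2b* averaged 1.95 and 4.93 FPKM over the 6 libraries. The share and this order thus rest on the exon model of each gene, whose fit was not tested. The kainate subunit gene *Grik5* averaged 66.7 ± 3.55 FPKM in KO and 65.4 ± 4.30 FPKM in WT. *Grid1*, a delta receptor gene, had the smallest unadjusted p of the list, at 18.5 ± 0.675 FPKM in KO and 16.7 ± 0.981 FPKM in WT (log2 fold change 0.13, limma adjusted p = 0.9999). Its genotypes did not overlap, as in 2.95% of all tested genes, and its pairs differed by 0.16, 0.07 and 0.17. With the replicate block its unadjusted limma p was 0.022 (adjusted p = 0.9989), and 503 of the 12863 tested genes were under 0.05 in that fit. *Grik2* (-0.10), *Grik4* (0.08) and *Grin3a* (0.07) followed *Grid1* in the fit without the block. The title number was called for 6 of the 14, against 30.6% of all tested genes.

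**Figure D4:**
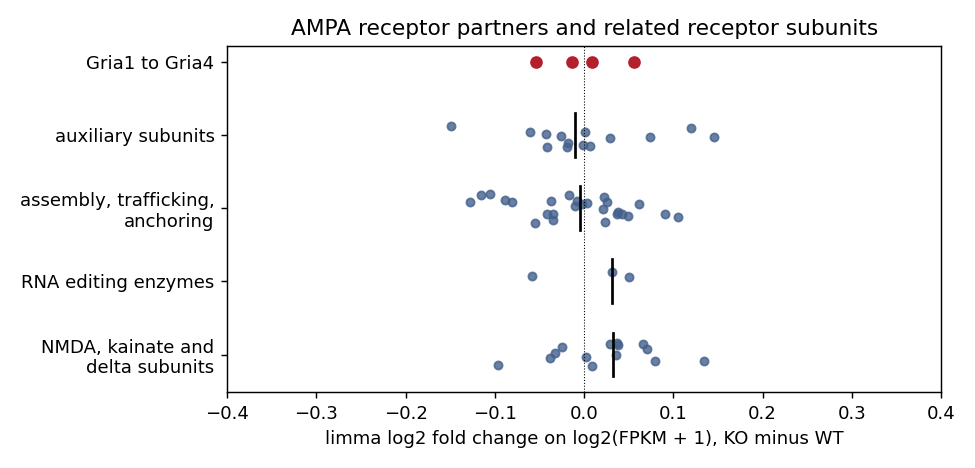
Limma log2 fold change of KO over WT on log2(FPKM + 1) for the 4 AMPA receptor subunit genes (red) and for each tested gene of 4 fixed lists (blue, with the list median as a line and random vertical spread). All points lie between -0.15 and 0.15.

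The genes with the pattern most like each subunit were found by the root mean square difference of log2(FPKM + 1), after each gene's mean over the 6 libraries was subtracted, among the genes that averaged at least 10 FPKM. For *Gria2* these were *Rab36*, *Kansl1* and *Ggps1*, with differences of 0.021, 0.025 and 0.030, where the median gene was at 0.20. For *Gria4* they included *Fam120a* and *Usp33*, with differences of 0.012 and 0.015. For *Gria3* they were *Rhobtb2*, *Rasgrf2* and *Mpp2*, with differences of 0.019, 0.020 and 0.024. For *Gria1* they were *Spon1*, *Ermp1* and *Hspa12a*, with differences of 0.042, 0.044 and 0.045, so that no gene came as near to *Gria1* as to the other subunits. Among the subunits themselves, *Gria2* and *Gria4* were the nearest pair, at 0.072, and *Gria2* and *Gria3* the farthest, at 0.20. These are descriptions over 6 libraries that share 3 title numbers.

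**Figure D5:**
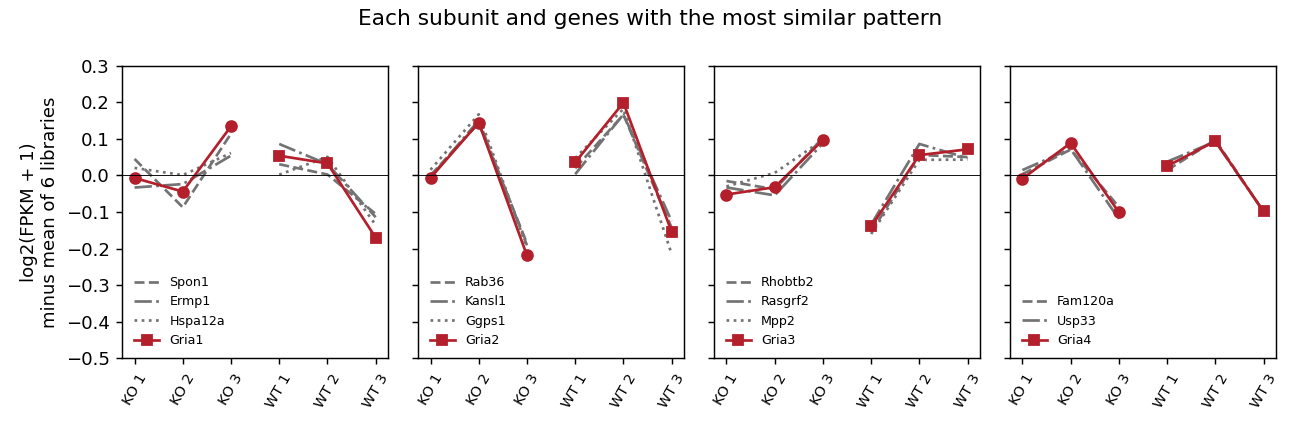
Log2(FPKM + 1) minus its mean over the 6 libraries for each subunit gene (red, circles KO and squares WT) and its most similar genes (grey lines, 3 for *Gria1*, *Gria2* and *Gria3* and 2 for *Gria4*). *Gria2* and *Gria4* peak in the libraries numbered 2 and dip in those numbered 3 in both genotypes, while *Gria1* is highest in KO replicate 3 and lowest in WT replicate 3.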

How the data were processed

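The authors deposited 1 table of FPKM values with 6 library columns, made by a HOMER command that counts exons on mm10 and condenses transcripts to 1 row per gene, per the file headers. The command lists 12 libraries, of which 6 have no column in the deposited table. No strand option appears in it, so overlapping and antisense genes are uncertain. STAR 2.4.0k, HOMER 4.8.3 and FastQC are named in the submitters' processing notes. FPKM compares relative levels only.

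FPKM values rise in steps of 1 read, which gave library totals of 22.7 to 31.9 megareads in KO and 27.5 to 38.2 megareads in WT. Of the 4897 to 7147 values checked per library (under 200 reads), 100.0% were whole within 0.1 read. No library was a duplicate of another (chi-square per degree of freedom at least 2.72).

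Limma 3.58.1 (R 4.3.3) was fitted to log2(FPKM + 1) with an intensity trend, 2-sided, with Benjamini-Hochberg adjustment over 12863 genes. It was also run on simulated data, and the outcome is not given here, so no claim on power rests on it. Shares and ratios used exact permutation tests (Python 3.11.15, scipy 1.17.1). Deviations from the group means correlated at 0.43, 0.71 and 0.67 between libraries numbered 1, 2 and 3, over 0.1 in each pair, so the numbers pair the libraries. Alternatives were another pseudocount, filter, scaling or denominator, limma-voom on recovered reads, the replicate block and leaving out each library. Members and lists were chosen with earlier results of these data known. Of each list the text names the 4 genes with the smallest unadjusted p, the 3 most abundant ones and all 3 editing enzymes, and of each subunit the 3 genes with the most similar pattern, of which 1 is not reported here. Sequences are from GENCODE M21.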

Additional observations from a re-analysis of the deposited data

How the results depend on the processing

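No alternative made a subunit gene, or a gene of the auxiliary, trafficking, editing or other ionotropic lists, pass the limma test of KO against WT. Of the marker lists, 3 of 11 striatal genes passed without KO replicate 2, where 4 of all 12863 tested genes passed. No other marker gene passed under any alternative run. The exact tests of shares and ratios cannot pass at this size. Directions of such small differences turned easily. Leaving out 1 library at a time gave log2 fold changes from -0.0156 to 0.0964 for *Gria1*, -0.144 to 0.0422 for *Gria2*, -0.0593 to 0.0461 for *Gria3* and -0.0667 to 0.0328 for *Gria4*. The share differences ranged from -0.172 to 2.61 percentage points (*Gria1*), -2.95 to 0.841 (*Gria2*), -1.02 to 1.48 (*Gria3*) and -0.272 to 0.149 (*Gria4*). The log2 ratio differences ranged from -0.234 to 0.0405 (*Gria2* to *Gria1*), -0.158 to 0.0629 (*Gria3* to *Gria1*), -0.0815 to 0.193 (*Gria3* to *Gria2*), -0.158 to 0.0323 (*Gria4* to *Gria1*), -0.00817 to 0.0761 (*Gria4* to *Gria2*) and -0.117 to 0.0733 (*Gria4* to *Gria3*). The difference of the mean log2 family total ranged from -0.0514 to 0.0535, and it was -0.00319 in recovered reads and -0.00151 with upper quartile scaling. The *Gria3* share was lower in KO by -0.0995 percentage points over all ionotropic subunits. Over all results and alternatives, 27 of 216 values changed direction, and the cause was not tested. The 216 include counts of called genes, which have no direction, of which 6 moved, as given below. They also include alternatives that cannot change a value, such as the replicate block. The fraction thus understates how often directions turned where they could. *Gria1* turned without WT replicate 3, and *Gria2* and *Gria4* without KO replicate 3 or WT replicate 2. *Gria3* turned without KO replicate 3 or WT replicate 1.

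The replicate block cannot change the mean differences, since each number has a KO and a WT library (*Gria2* log2 fold change -0.05, share difference -1.28 points). It changed no call. The count of called genes was 1, and 2 with a pseudocount of 0.1, 2 without a filter, and 0 with a filter at 5 FPKM, which removes *Chrdl1*. It ranged from 1 to 4 with 1 library left out: 4 without KO replicate 2 (*Chrdl1*, *Ppp1r1b*, *Scn4b* and *Penk*) and 2 without WT replicate 2. The title number was called for 3936 genes, for 3426 to 4777 under other scalings, filters, pseudocounts or tools, and for 0 without a filter, where 5355 had an unadjusted p under 0.05. For *Gria4* the title number was called with quantile normalization (adjusted p = 0.0450) and limma-voom (0.0369).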
